A study of Mus musculus with 212 samples.

Results

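The cytoplasmic ribosomal protein genes of the mouse were followed through mRNA profiles of 4 inbred strains. Members were the rows whose symbol is Rpl or Rps followed by a number, with the a, x and l forms, or Rplp with a number from 0 to 2. Symbols of pseudogenes and of the Rps6k kinases were left out. The rule found 74 members among 27123 rows of the table, 48 of them of the large subunit and 26 of the small subunit. It used symbols and no measured value. The series itself is a small RNA survey of the right brain hemisphere of mice that had no treatment, from a recombinant inbred panel named LXS, which was bred from the strains ILS (long sleep after ethanol) and ISS (short sleep). Its mRNA table holds log2 expression values, with a single value for each gene and profile. For it, the platform, the tissue, the age and the normalization were not given in the sources used here.

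ILS had 6 profiles, ISS 6, LXS41 5 and LXS80 6. LXS41 and LXS80 are inbred strains that carry mixtures of the ILS and ISS genomes. The names of the profiles also give a set number, and its meaning was not stated. Of the parents, 3 profiles each were in set 1. The other ILS profiles were in set 11 and the other ISS profiles in set 15. LXS41 had replicates 1 and 2 in set 1, replicates 3 and 4 in set 6 and replicate 5 in set 9. The LXS80 profiles lay in sets 3 and 14, which held no profile of another strain used here. Each name further carries a number that no other profile used here shares and that may stand for an animal, but no label says what it is, so p-values measure only the spread between these profiles, which may be technical. Markers of neurons averaged from 11.22 to 11.50 per profile on the log2 scale, and markers of other tissues from 6.22 to 6.64. ILS replicate 4 stood apart, since its mean over 6 cerebellar granule cell markers was 7.27, against 9.59 to 10.18 in the remaining 22 profiles. Column medians ran from 7.11 in LXS41 replicate 1 to 7.24 in ISS replicate 3.

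A cytoplasmic ribosome holds 1 copy of nearly every ribosomal protein, and the cell makes the proteins of both subunits in matched amounts. Their mRNAs begin with a pyrimidine tract at the very start of the transcript, the TOP motif, through which the growth kinase mTOR and the RNA-binding protein Larp1 control their translation together. In neurons, ribosomal protein mRNAs are also carried into axons and dendrites. Many processed pseudogenes resemble these genes closely, so that values of a member can include signal from a near-identical copy. Probe sequences were not among the sources used here, and a difference in transcript amount cannot be told apart from a difference in how the probes read the sequence of each strain. In bulk tissue, fewer cells of a type and less RNA per cell cannot be told apart either.

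RefSeq promoter entries on GRCm38.p6 were matched for 55 of the 74 members. The windows shown are those of the 3 members that differed between the parents and were chosen for that after the values were seen. Each holds the 40 bases before the annotated start and the first 10 transcribed bases, written 5′ to 3′ on the strand of the gene, with a pyrimidine tract at the start in capitals where the letters hold one. Rpl28 lies on the plus strand at chr7:4792925-4792974, Rpl18 on the plus strand at chr7:45718031-45718080 and Rpl13 on the plus strand at chr8:123102310-123102359.
Rpl28: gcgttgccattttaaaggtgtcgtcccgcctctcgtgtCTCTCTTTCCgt
Rpl18: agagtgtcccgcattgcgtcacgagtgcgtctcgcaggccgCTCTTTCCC
Rpl13: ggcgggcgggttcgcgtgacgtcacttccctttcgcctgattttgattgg
Rpl28 and Rpl18 each have a tract of 10 pyrimidines at the annotated start, whole in the window of Rpl28 and cut off at the last base in that of Rpl18, and Rpl13 has none there. The tract was searched on the coding strand only, as a C within 5 bases of the start followed by at least 4 further C or T. It was found in 25 of the 55 members, which is 45.5%, and in 21.2% of the 27025 promoters of all genes. In the whole entries, which hold 250 bases before the start and 50 after it, and on either strand, CCGGAAG stood in 23 members, or 41.8%, against 9.93% of all promoters. GGGCGG stood in 35 members, or 63.6%, against 38.2% of all promoters. ATGGCGGC stood in 4 members, or 7.27%, against 2.6% of all promoters. TATAAA on the coding strand between 20 and 40 bases before the start stood in 0 members, against 2.41% of all promoters. Read on the other strand, CCGGAAG holds a C followed by 4 of C or T, so near the start a match to it can also count as a tract. None of the other motifs contains another, and these matches describe letters only.

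Of the 66 members tested, Rpl28 differed most between the strains. It codes for a protein of the large subunit that budding yeast lacks. In ILS its log2 level ran from 8.52 through a median of 8.60 to 8.68, and in ISS from 8.98 through 9.31 to 9.63. All ILS profiles lay below all ISS profiles. The mean was 8.60 ± 0.05 in ILS and 9.31 ± 0.23 in ISS (SD, n = 6 each). The difference, ILS minus ISS, was -0.71 (SE 0.09; limma, adjusted p = 1.72e-05), which is 1.63-fold higher in ISS. In the 3 profiles of each parent in set 1 the difference was -0.60 (limma, adjusted p = 0.0196), and in the other sets it was -0.81 (limma, adjusted p = 0.0122). Without ILS replicate 4 it was -0.71 (limma, adjusted p = 5.73e-05).

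The recombinant strains fell on the same levels. In LXS41 the log2 level of Rpl28 was 8.60, 9.0, 8.54, 8.59 and 8.73 in replicates 1 to 5. In LXS80 it ran from 9.05 through a median of 9.35 to 9.57. LXS41 replicate 2 was the nearest to LXS80, and the strains did not overlap. The mean was 8.69 ± 0.19 in LXS41 (SD, n = 5) and 9.33 ± 0.17 in LXS80 (SD, n = 6). The difference, LXS41 minus LXS80, was -0.63 (SE 0.10; limma, adjusted p = 0.000201), which is 1.55-fold higher in LXS80. In the order of strain means, ILS and LXS41 stood next to each other, as did ISS and LXS80, and the neighbours differed by less than the pooled SD within strains of 0.17. Strain accounted for 82.5% of the variance of Rpl28, against a median of 20.5% over the tested members and 27.2% over all tested genes. The F test over the strains gave 34.3 (limma, adjusted p = 2.09e-06).

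**Figure D1:**
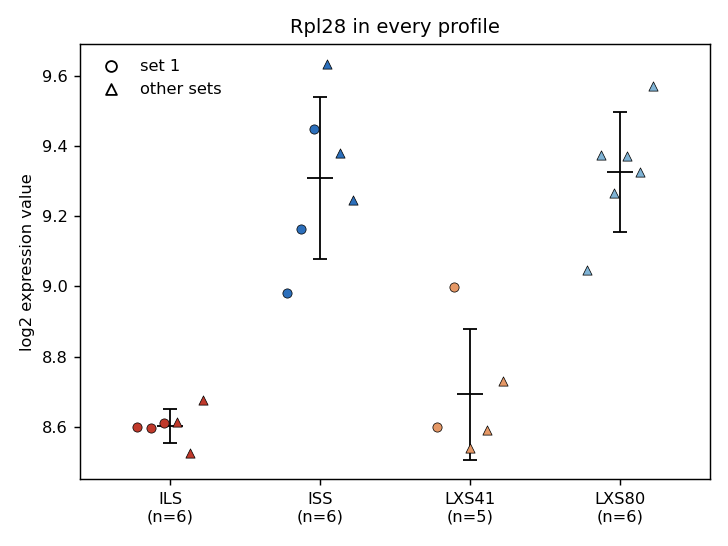
Log2 expression value of Rpl28 (vertical axis) in each profile of ILS, ISS, LXS41 and LXS80, with circles for set 1, triangles for the other sets, and the mean ± SD of each strain in black. ILS and LXS41 lie mostly near 8.60 and ISS and LXS80 mostly between 9.05 and 9.63, with LXS41 replicate 2 at 9.0 and ISS replicate 1 at 8.98 side by side in the middle.

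By the definition used here a member has a 2-level pattern where the strains divide into 2 sets whose profiles do not overlap, with a gap above the SD within strains. No member met it, and 106 of all tested genes did, which is 0.514%. Rpl28 missed it by a single pair of profiles, since LXS41 replicate 2 at 9.0 lay above ISS replicate 1 at 8.98. The next values were 8.73 on the low side and 9.05 on the high side. Without LXS41 replicate 2, and so also without both LXS41 profiles of set 1, Rpl28 met it. This follows from the values above, since that profile made Rpl28 miss, and adds no support. The share of all genes that met it without these profiles is not given here. ILS replicate 4 lay at 8.61, inside the range of the remaining ILS profiles.

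The genes around Rpl28 on chromosome 7 were looked at after these values were seen. Of 5 tested neighbours on each side, 10 in all, 1 passed the test in each contrast and 2 passed the F test. Over all tested genes, 7.6% passed in ILS minus ISS, 20.7% in LXS41 minus LXS80 and 22.6% in the F test. Shisa7, which codes for a protein that binds neuronal receptors, was at 10.10 in ILS and 9.91 in ISS (difference 0.19; limma, adjusted p = 0.0367). Isoc2b was at 7.25 in LXS41 and 6.96 in LXS80 (difference 0.29; limma, adjusted p = 0.0110). Both differences have the opposite sign to that of Rpl28 in the same contrast. The row named Rpl28-ps4, after a pseudogene of Rpl28, was at 7.1 ± 0.30 in ILS and 6.69 ± 0.25 in ISS (SD, n = 6 each), which did not pass the test (difference 0.42; limma, adjusted p = 0.0971).

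A filter kept genes with a log2 value of 6 or more in 5 or more profiles. With it, 66 members were tested among 20617 genes. The 8 members under the filter were Rpl7, Rpl14, Rpl15, Rpl19, Rpl24, Rpl39l, Rps26 and Rps29, with mean log2 levels from 3.42 for Rpl19 to 5.47 for Rpl7. The ribosome of every cell holds the products of most of these genes, so a low value here describes the row of the table. Of these genes, Rpl14 averaged 5.43 ± 0.53 in ILS, 4.45 ± 0.88 in ISS, 5.67 ± 0.59 in LXS41 and 4.56 ± 0.56 in LXS80 (SD). In both contrasts its strain means lay further apart than those of Rpl28 and in the opposite direction, at levels under the filter. Members with the highest mean levels were Rpl3, which shapes the peptidyl transferase centre, at 12.98, Rplp1, a protein of the stalk that recruits elongation factors, at 12.78 and Rpl4, which lines the exit tunnel, at 10.67. The lowest were Rpl19 at 3.42, Rpl39l at 4.21 and Rps29 at 4.44. These levels are not scaled per transcript length and probe, so they do not rank the genes by abundance.

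Between the parents, 3 tested members, or 4.55%, passed the test at an adjusted p of 0.05, against 7.6% of all tested genes. Of these, 1 was higher in ILS, where 3.39% of all genes were called, and 2 were lower in ILS, where 4.21% of all genes were called. At an unadjusted p below 0.05 there were 9 members, or 13.6%, against 20% of all tested genes. The family as a whole was thus called no more often than other genes. Its median difference, ILS minus ISS, was -0.02, against -0.01 over all tested genes, and the median size of a difference was 0.07 in both. Of the 66 members, 39 had a difference below 0 and 27 one above 0.

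Rpl18 was the member higher in ILS. It codes for a large subunit protein. Its log2 level ran from 7.0 through a median of 7.26 to 7.40 in ILS, and from 6.67 through 6.78 to 7.07 in ISS. ILS replicate 1 at 7.0 lay below ISS replicate 3 at 7.07, and the other profiles were apart. The difference was 0.43 (SE 0.08; limma, adjusted p = 0.00195). Within set 1 it was 0.34, which did not pass the test (limma, adjusted p = 0.247), and in the other sets 0.51 (limma, adjusted p = 0.0449). In LXS41 the level was 6.92, 7.19, 7.15, 6.77 and 6.87 in replicates 1 to 5, and in LXS80 it ran from 6.71 through a median of 6.98 to 7.13. These ranges overlapped nearly in full, and the difference, LXS41 minus LXS80, was 0.01 (SE 0.09; limma, adjusted p = 0.924).

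Rpl13, another large subunit protein, was lower in ILS. Its log2 level ran from 6.87 through a median of 6.95 to 7.04 in ILS, and from 7.07 through 7.20 to 7.40 in ISS. The parents did not overlap, but by a small gap. The difference was -0.27 (SE 0.08; limma, adjusted p = 0.0320). It was -0.18 within set 1 (limma, adjusted p = 0.433) and -0.36 in the other sets (limma, adjusted p = 0.109), and without ILS replicate 4 it was -0.25 (limma, adjusted p = 0.0734). In LXS41 Rpl13 was at 6.93 and 6.84 in the profiles of set 1, and at 7.24, 7.42 and 7.30 in those of sets 6 and 9. LXS80 ran from 6.93 through a median of 7.04 to 7.07. The LXS41 profiles thus lay on both sides of LXS80, split by set. With all profiles the difference, LXS41 minus LXS80, was 0.13 (limma, adjusted p = 0.257). Without the set 1 profiles of LXS41, an alternative chosen after the values were seen, it was 0.31 (limma, adjusted p = 0.00861).

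Markers of other cell types also differed between the parents. Of 6 choroid plexus markers, 4 were lower in ILS, and their mean per profile was 8.37 to 8.74 in ILS and 8.76 to 8.94 in ISS. Of 7 microglia markers, 3 were higher in ILS, with means of 8.32 to 8.55 in ILS and 8.08 to 8.32 in ISS. The microglia list did not move as a whole, since 3 of the 7 had a difference below 0 and the median difference was 0.05. Over all tested genes, 3.39% were called higher and 4.21% lower in ILS. The lowest mean level of any of these markers was 6.82. Their part in the differences of Rpl28, Rpl18 and Rpl13 was not tested.

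**Figure D2:**
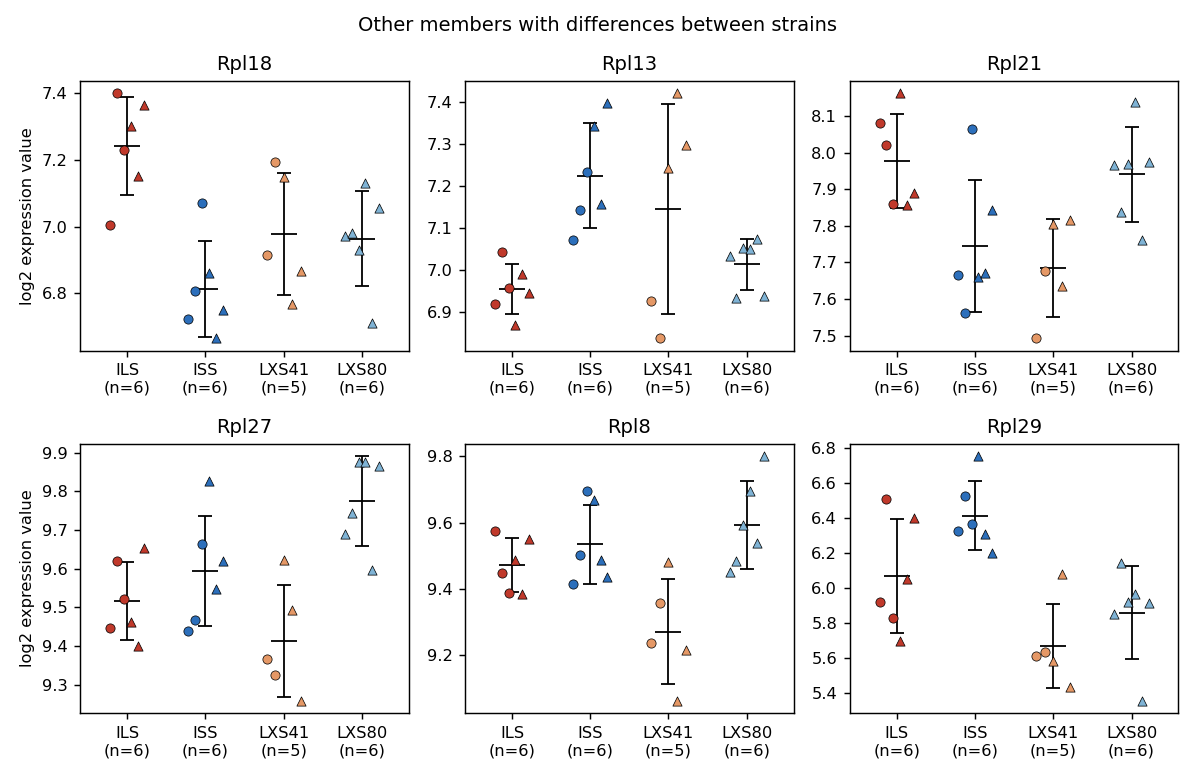
Log2 expression value (vertical axes, each with its own range) of Rpl18, Rpl13, Rpl21, Rpl27, Rpl8 and Rpl29 in each profile of ILS, ISS, LXS41 and LXS80, with circles for set 1, triangles for the other sets, and the mean ± SD of each strain in black. Rpl18 is highest in ILS at a mean of 7.24, the LXS41 values of Rpl13 split by set, and Rpl27 and Rpl8 are lowest in LXS41 at means of 9.41 and 9.27.

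Between the recombinant strains, 7 tested members were lower in LXS41, where 18.7% of all tested genes were called, and 0 were higher, where 2.03% of all genes were called. Together they make 10.6% of the members, against 20.7% of all genes in either direction. At an unadjusted p below 0.05 there were 13 members, or 19.7%, against 35.6% of all tested genes. The median difference, LXS41 minus LXS80, was -0.06 over the members and -0.06 over all tested genes, and 45 of 66 members had a difference below 0. The fall of members in LXS41 was thus no more common than that of other genes. The split of all genes into 419 higher and 3847 lower became 460 higher and 757 lower after quantile normalization, and the members called became 1 higher and 3 lower.

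Rpl28, Rpl27 and Rpl8 were the 3 members called lower in LXS41 under both scalings. Rpl27, a large subunit protein whose human gene is mutated in some families with Diamond-Blackfan anaemia, was at 9.37, 9.33, 9.62, 9.49 and 9.26 in LXS41 replicates 1 to 5. In LXS80 it ran from 9.60 through a median of 9.81 to 9.88. Only LXS41 replicate 3 reached the range of LXS80. The difference was -0.36 (SE 0.07; limma, adjusted p = 0.00229). Rpl8, which lies at the interface of the subunits near the catalytic centre, was at 9.24, 9.36, 9.48, 9.06 and 9.22 in LXS41 replicates 1 to 5. In LXS80 it ran from 9.45 through a median of 9.57 to 9.80. Again replicate 3 of LXS41 alone reached LXS80. The difference was -0.32 (SE 0.07; limma, adjusted p = 0.00427). Neither differed between the parents past the test, with -0.08 for Rpl27 and -0.06 for Rpl8.

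Rpl3, Rpl4, Rpl21 and Rpl6l were called lower in LXS41 on the deposited values, and lost the call after quantile normalization. Rpl3 was at 12.69, 12.82, 13.03, 12.91 and 12.96 in LXS41 replicates 1 to 5, and from 13.01 through a median of 13.08 to 13.16 in LXS80. Replicate 1 was the lowest LXS41 profile, and without it the call was lost (limma, adjusted p = 0.0663, against 0.0156 with it). Rpl4 was at 10.61, 10.65, 10.65, 10.54 and 10.59 in LXS41 replicates 1 to 5, and from 10.70 through a median of 10.74 to 10.85 in LXS80. The strains did not overlap although the difference was only -0.14 (SE 0.04; limma, adjusted p = 0.0197). After quantile normalization it was -0.03 (limma, adjusted p = 0.695), and without LXS41 replicate 4 it was -0.13 and not called (limma, adjusted p = 0.0657).

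Rpl21, whose human gene has been linked to an inherited loss of hair, was at 7.49, 7.68, 7.80, 7.64 and 7.82 in LXS41 replicates 1 to 5, and from 7.76 through a median of 7.97 to 8.14 in LXS80. The difference was -0.26 (SE 0.08; limma, adjusted p = 0.0333). The call was lost without LXS41 replicate 1 or 4 or LXS80 replicate 1, 3, 4 or 6, with adjusted p from limma up to 0.115. Its level in ILS ran from 7.86 through 7.95 to 8.16, and in ISS from 7.56 through 7.67 to 8.06. ISS replicate 3 at 8.06 was the only ISS profile within the range of ILS, and the difference of 0.23 did not pass the test (limma, adjusted p = 0.0750). Without ISS replicate 3 it was 0.30 and passed (limma, adjusted p = 0.0127). That profile was singled out after the values were seen, and leaving it out had to widen the difference. Rpl6l, a copy of the Rpl6 gene, was at 8.80, 8.72, 8.92, 8.33 and 8.95 in LXS41 replicates 1 to 5, and from 8.94 through a median of 9.04 to 9.35 in LXS80. Its lowest value was in LXS41 replicate 4, and without that profile the call was lost (limma, adjusted p = 0.0988 against 0.0253), as it was without LXS80 replicate 4 or 6.

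Markers moved between these strains as well, in a contrast where 18.7% of all tested genes were called lower in LXS41. Of 7 microglia markers, 4 were lower in LXS41, with means per profile of 7.98 to 8.1 in LXS41 and 8.14 to 8.38 in LXS80. Of 6 oligodendrocyte markers, 3 were lower in LXS41, with means of 10.31 to 10.55 in LXS41 and 10.52 to 10.78 in LXS80. After quantile normalization, 2 of the microglia markers and 0 of the oligodendrocyte markers were called lower in LXS41. Their part in the differences of the 7 members was not tested. Set and strain cannot be told apart here, since the sets of LXS80 hold no other strain.

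**Figure D3:**
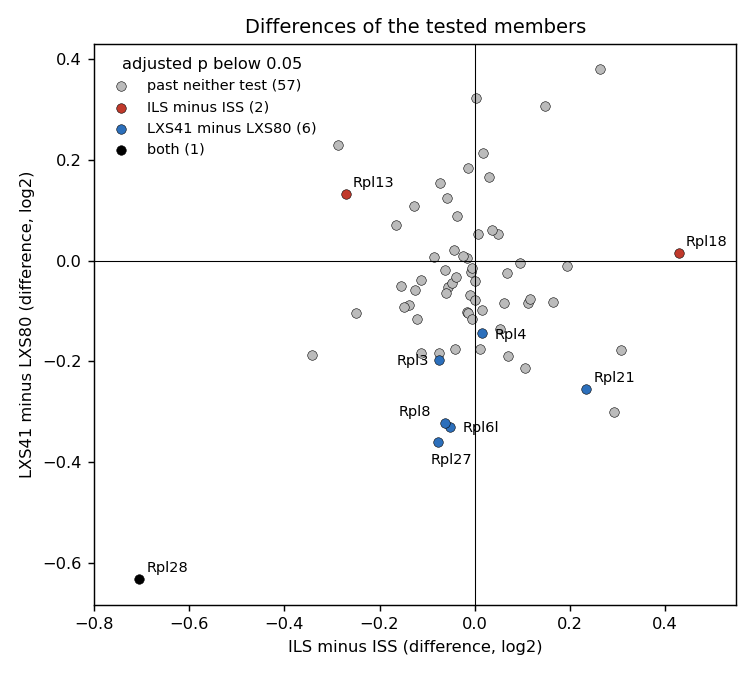
Difference ILS minus ISS (horizontal axis, log2) against LXS41 minus LXS80 (vertical axis, log2) for the 66 tested members, coloured by the contrast with an adjusted p below 0.05. Rpl28 stands alone at -0.71 and -0.63, and most members lie within 0.2 of 0 on both axes.

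The F test over the 4 strains called 11 of the 66 tested members, or 16.7%, against 22.6% of all tested genes. They were Rpl28, Rpl29, Rpl27, Rpl18, Rpl8, Rpl6, Rpl21, Rpl3, Rpl13, Rps15a and Rpl4. The large subunit had 10 of its 42 tested members called and the small subunit 1 of 24, Rps15a, and this difference was not tested. Counting the contrasts as well, 12 members were called in some test and 54 in none, and Rpl28 was the 1 member called in both contrasts. Values of the members within a strain were more spread than those of other genes, with a median SD of 0.15 against 0.10 over all tested genes.

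Rpl29, Rpl6 and Rps15a were called by the F test and by neither contrast, and no other pair of strains was tested. Rpl29 and Rpl6 lay near the filter level of 6, at means of 6.02 and 5.91. The markers of other tissues averaged 6.22 to 6.64 per profile. Rpl29 reached 6 in 11 profiles, among them all of ISS, and Rpl6 in 9, none of them of LXS41. Both thus passed the filter largely through strains where they were higher, and their calls rest on values near the floor. Rpl29, a large subunit protein also described as a heparin-binding protein, ran from 5.70 through a median of 5.99 to 6.51 in ILS and from 6.20 through 6.34 to 6.75 in ISS. In LXS41 it was at 5.61, 5.64, 5.59, 6.08 and 5.44 in replicates 1 to 5, and in LXS80 it ran from 5.36 through 5.92 to 6.14. All ISS profiles lay above those of LXS41 and LXS80, and ILS spanned both (F = 9.2; limma, adjusted p = 0.00577). Rpl6 averaged 6.13 ± 0.22 in ILS, 6.02 ± 0.25 in ISS, 5.62 ± 0.08 in LXS41 and 5.84 ± 0.17 in LXS80 (SD), and no LXS41 profile reached the range of ILS (F = 7.11; limma, adjusted p = 0.0144). Rps15a averaged 7.61 ± 0.11 in ILS, 7.55 ± 0.16 in ISS, 7.33 ± 0.15 in LXS41 and 7.47 ± 0.10 in LXS80 (SD), with overlap between all strains (F = 4.78; limma, adjusted p = 0.0455).

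The l forms are paralogs or gene copies of members. Rpl3l, the form of Rpl3 used in heart and skeletal muscle, lay near the filter at a mean of 6.0, and Rpl39l, which is enriched in testis, under it at 4.21. Rpl7l1 was at 9.84, Rps4l at 8.62, Rps27l at 7.95 and Rpl36al at 6.90. Apart from Rpl6l, no tested l form passed a test, with differences between -0.11 for Rps27l and 0.12 for Rpl36al in ILS minus ISS, and between -0.10 for Rpl3l and 0.12 for Rps4l in LXS41 minus LXS80.

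The members moved together only weakly across profiles. Their median level per profile, each member taken relative to its own mean, ran from -0.16 in LXS41 replicate 1 to 0.12 in ISS replicate 3 on the log2 scale. In LXS41 replicate 1, 11 of the 66 members were above their own mean, and in ISS replicate 3, 56 were. The same median over all tested genes was -0.11 and 0.07 in these profiles. Relative to all genes, the level of the family stayed between -0.05 and 0.05 in each profile. By strain, it averaged 0.01 ± 0.03 in ILS, 0.02 ± 0.06 in ISS, -0.05 ± 0.06 in LXS41 and 0.01 ± 0.05 in LXS80 (SD), so that LXS41 lay lowest, by about the SD within a strain. The same mean over all tested genes was -0.04 in LXS41 and between 0.0041 and 0.0261 in the other strains.

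**Figure D4:**
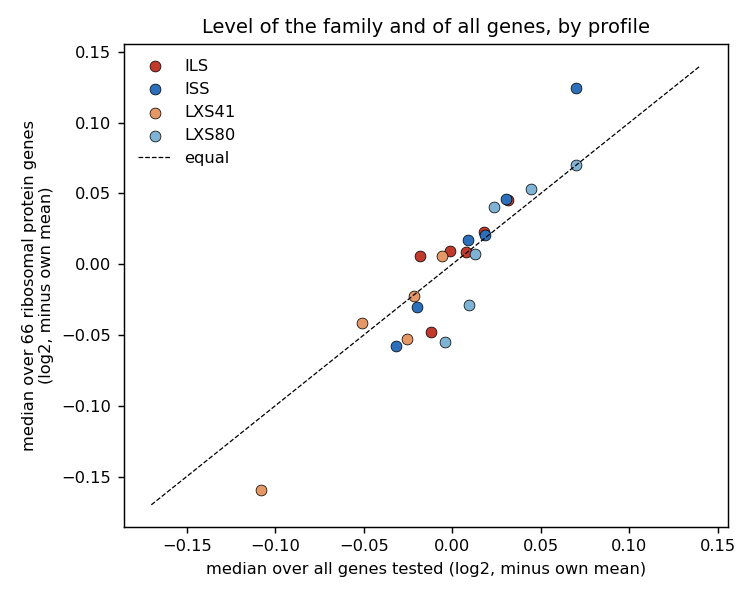
Median level of the 66 tested ribosomal protein genes (vertical axis) against that of all tested genes (horizontal axis), both in log2 relative to each gene's mean, with 1 point per profile coloured by strain and a dashed line of equality. The family follows the line, from LXS41 replicate 1 at -0.16 to ISS replicate 3 at 0.12.

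Over the 2145 pairs of members, the median Pearson correlation across the 23 profiles was 0.10, and 0.11 once strain means were removed. Over all tested genes it was 0.07 on both scales. With strain means removed, the quartiles of the member pairs were -0.08 and 0.28, and single pairs ranged from -0.63 to 0.79. The profiles share their column scaling, and the correlation of members was 0.0234 after quantile normalization and 0.0425 after median centring. No value over all genes was taken on those scales, so whether members stayed above other genes there is not known. These correlations describe 23 profiles in 4 strains and carry no test.

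Members differed in how far they followed the rest. With strain means removed, the correlation of a member with the median of the others was 0.27 at the median. It was above 0 for 58 of 66 members and above 0.5 for 15. The same counts were not taken over other genes, whose level also shifted between profiles, so they do not set the members apart. Among the highest were Rpl21 at 0.74, Rpl41, the smallest of the proteins, at 0.71, Rpl10a at 0.68 and Rpl38, which mouse embryos need for skeletal patterning, at 0.68. Among the lowest were Rps10 at -0.29, Rpl6 at -0.19, Rpl37a at -0.16 and Rpl31 at -0.09. Rps10, a small subunit protein of the region where mRNA enters, ran from 7.90 through a median of 8.0 to 8.06 in ILS and from 7.82 through 7.90 to 7.99 in ISS, with no call in any test. The pairs with the highest correlation were Rps16 with Rpl23 at 0.79, then Rpl28 and Rpl8, each with Rpl41 at 0.77.

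Rows named after pseudogenes were set beside the members after the values were seen. The table held 104 such rows, 85 of them named after a member, and 39 members had at least 1. Of the 65 tested, 11 were called by the F test, 1 was higher and 4 were lower in ILS, and 1 was higher and 5 were lower in LXS41. As for the members, the share called by the F test was below the 22.6% of all tested genes. Rps2-ps10 was at 7.15 in ILS and 8.0 in ISS (difference -0.85; limma, adjusted p = 0.000179), while Rps2 itself differed by -0.06. Rpl34-ps2 was at 10.06 in ILS and 10.57 in ISS (difference -0.50; limma, adjusted p = 0.000419), while Rpl34 differed by 0.16 without passing the test. Rpl21-ps13 was at 11.94 in ILS and 11.60 in ISS (difference 0.34; limma, adjusted p = 0.00861), and at 11.69 in LXS41 and 11.97 in LXS80 (difference -0.28; limma, adjusted p = 0.0221). Its differences have the signs of those of Rpl21. Rpl21-ps3 had the opposite sign to Rpl21 between the parents, at -0.10, and the same sign in LXS41 minus LXS80, at -0.09, past neither test. Rpl18-ps2 was not among the 3 rows with the smallest p of the F test. It was at 10.29 ± 0.17 in ILS and 10.02 ± 0.19 in ISS (SD, n = 6 each). Its difference of 0.27 had the sign of that of Rpl18 and did not pass the test (limma, adjusted p = 0.0667). Rpl28-ps4, given above, had the opposite sign to Rpl28, and Rpl13-ps6 differed by -0.01 where Rpl13 differed by -0.27. With near-identical copies the source of these signals is uncertain.

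Other genes of protein synthesis were read from lists. Beside their counts stand the shares of all tested genes, which were 22.6% for the F test, 3.39% higher and 4.21% lower in ILS, and 2.03% higher and 18.7% lower in LXS41. Counts of genes lower in LXS41 shrank after quantile normalization in every one of these lists, as they did over all genes, in an alternative chosen after the values were seen. Of the ribosomal components outside the symbol rule, Fau, whose product includes a small subunit protein, was at 10.78 in LXS41 and 10.98 in LXS80 (difference -0.20; limma, adjusted p = 0.0403). Rack1, a scaffold on the small subunit, was at 9.33 in LXS41 and 9.48 in LXS80 (difference -0.15; limma, adjusted p = 0.0305). Neither Fau nor Rack1 passed the test between the parents, nor in LXS41 minus LXS80 after quantile normalization. Of 33 tested initiation and elongation factors, 1 was higher and 1 lower in ILS, and 0 were higher and 14 lower in LXS41, where 2 were lower after quantile normalization. Their median difference was -0.01 in ILS minus ISS and -0.13 in LXS41 minus LXS80. Eif4a1, the helicase of the cap-binding complex, was at 6.87 in ILS and 6.52 in ISS (difference 0.35; limma, adjusted p = 0.00101) and at 6.40 in LXS41 and 6.77 in LXS80 (difference -0.38; limma, adjusted p = 0.00113). Eif4b and Eif3a were lower in LXS41 by the test, with differences of -0.20 and -0.26.

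Of 29 tested ribosome biogenesis genes, ILS had 3 higher and 2 lower, and 0 were higher and 14 lower in LXS41, where 1 was lower after quantile normalization. Polr1a, the largest subunit of the polymerase that makes ribosomal RNA, was at 8.02 in ILS and 8.44 in ISS (difference -0.42; limma, adjusted p = 6.37e-07). Heatr1, a factor of the small subunit processome, was at 7.71 in ILS and 7.52 in ISS (difference 0.19; limma, adjusted p = 0.0129), and Ncl, the nucleolar protein nucleolin, was at 9.94 in LXS41 and 10.17 in LXS80 (difference -0.24; limma, adjusted p = 0.00311). Of 12 growth control genes, ILS had 0 higher and 1 lower, and 0 were higher and 7 lower in LXS41, where 1 was higher and 1 lower after quantile normalization. The gene lower in ILS was Eif4ebp1, which holds back cap-dependent initiation, at 6.59 in ILS and 7.25 in ISS (difference -0.66; limma, adjusted p = 0.00396). Rheb and Tsc2, which act on mTOR in opposite ways, were lower in LXS41 by the test, with differences of -0.23 and -0.17.

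Of 75 tested genes for proteins of the mitochondrial ribosome, 20 were called by the F test. In ILS, 4 were higher and 4 lower, and in LXS41 1 was higher and 15 lower, or 2 higher and 2 lower after quantile normalization. Mrpl9 was at 8.11 in ILS and 8.60 in ISS (difference -0.49; limma, adjusted p = 4.87e-06), Mrpl14 at 8.27 in ILS and 7.84 in ISS (difference 0.43; limma, adjusted p = 0.000652), and Mrpl15 at 8.67 in ILS and 8.51 in ISS (difference 0.16; limma, adjusted p = 0.0468). Their median difference was -0.02 in ILS minus ISS and -0.10 in LXS41 minus LXS80, where the cytoplasmic family had -0.02 and -0.06.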

How the data were processed

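Per the file headers, the authors deposited 1 mRNA table of log2 values per Ensembl gene; its header names probes, and no aligner, array or build was given in the sources used here. Of 399 columns, 23 could be given a strain and 376 were not used. Symbols were matched by identifier for 26820 of 27123 rows. Replicate numbers follow the table and only name profiles. Strain means of 20617 genes at or above 6 in at least 5 profiles were fitted with limma 3.58.1 in R 4.3.3 (intensity trend, robust), with Benjamini-Hochberg adjustment over all of them and a threshold of 0.05, after tests on simulated data. The values carry no depth, and the number of profiles limits the precision. Members, lists and tests were chosen with earlier results of these data known. Named were all called members, the 5 highest and 5 lowest by correlation with the rest, the 3 highest and lowest by level, l forms and up to 3 genes per list by F test. Some genes that this rule names are not reported here. Alternatives changed the filter, scaling, limma settings and profiles used. The miRNA tables were not used here.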

Additional observations from a re-analysis of the deposited data

Results flagged for a closer look

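Of 52 groups, which were the 12 called members and the level of the family in each of 4 strains, 1 held a profile far from the others: Rpl29 in LXS80 replicate 5 was at 5.36 on the log2 scale, while the other LXS80 profiles ran from 5.85 to 6.14. Its gap to the next profile was 0.635 of the range of the strain. Chance alone places about 1 in 20 groups past the limit used.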

How the results depend on the processing

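Rpl28 kept its direction and its call in all 34 alternatives of ILS minus ISS and all 31 of LXS41 minus LXS80, with differences of -0.81 to -0.60 and -0.71 to -0.52. No called member changed direction in the contrast that called it. Several alternatives, such as leaving out profiles of strains outside a contrast, kept the difference itself. In those the direction was fixed, and only the spread or the adjustment behind a call could change. In ILS minus ISS, 3 members were called higher after quantile normalization and 3 after median centring (Rpl18, Rpl21 and Rpl38), and 0 with set as a term and 0 in set 1 alone. Called lower was 1 member (Rpl28) with set as a term, 1 in set 1 alone and 1 in the other sets alone. Of all tested genes, 1126 were called higher after quantile normalization and 837 after median centring. With set as a term 260 of all genes were called higher and 236 lower, and in set 1 alone 163 and 131. In the other sets alone 195 of all genes were called lower. With set as a term the difference comes from the set 1 profiles alone, since sets 11 and 15 each hold 1 parent only. In LXS41 minus LXS80, 1 was called higher without the filter (Rpl14) and 1 after quantile normalization (Rpl5), where 3 were called lower. Of all genes, 604 were called higher without the filter, and 460 higher and 757 lower after quantile normalization. The median correlation of members was 0.0234 after quantile normalization and 0.0425 after median centring, and 0.0318 and 0.0505 with strain means removed. No value over all genes was taken beside these. Without the LXS41 profiles of set 1, a choice made after seeing the data, 7 members were called by the F test, 1 was higher (Rpl13) and 4 were lower in LXS41, and 1 (Rpl28) had a 2-level pattern. Of all tested genes, the F test called 2903 without these LXS41 profiles, with 292 higher and 1595 lower in LXS41. Leaving out 1 profile at a time gave 7 to 12 members by the F test, the lowest without LXS80 replicate 6. It gave 1 to 3 higher and 1 to 2 lower in ILS, with 3 higher without ISS replicate 3 and 1 lower without ILS replicate 1, 3, 4 or 6 or ISS replicate 3, 4 or 6. In LXS41 it gave 0 to 1 higher, 1 without LXS41 replicate 2 (Rpl13) or LXS80 replicate 2 (Rpl5), and 4 to 8 lower, with 4 without LXS41 replicate 4. The same fits called 3103 to 5054 of all tested genes by the F test. They called 521 to 744 of all genes higher and 647 to 928 lower in ILS. In LXS41 they called 217 to 475 of all genes higher and 1767 to 4205 lower. Members with a 2-level pattern numbered 0 to 1. All genes lower in LXS41 numbered 1767 without LXS41 replicate 1, 2038 without LXS41 replicate 4 and 2295 without LXS80 replicate 6, against 3847. Of the F test calls, Rpl4 was lost in 23 of 30 alternatives, Rps15a in 20, Rpl13 in 15 and Rpl3 in 11. Causes were not tested. Set as a term could not be fitted for the F test or LXS41 minus LXS80. No paired analysis was possible because the profiles carry no replicate numbers of the labels.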
